A study of Mus musculus with 6 samples.

Results

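Interferon-stimulated genes are genes whose transcription rises when a cell senses an interferon, and 42 of them were followed here in cultured mouse dermal cells with and without Nelfb, among 17924 genes in the deposited table. The members were chosen by name. They comprise 34 genes of the type I interferon response, such as Isg15, the Ifit, Oas and Mx genes, and 8 interferon-inducible GTPases, namely the guanylate-binding proteins and the immunity-related GTPases, which are also strongly induced by interferon gamma. All 42 were listed in the table and all passed the limit on low values.

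Nelfb encodes a subunit of the negative elongation factor, which holds RNA polymerase II shortly after the start of transcription. Dermal fibroblasts from the dorsal skin of neonatal (P0) mice on a C57BL/6J background were kept for 14 days in adipocyte differentiation medium, and RNA was then sequenced from 3 CTL and 3 Nelfb-/- samples, which the study describes as biological replicates. Nelfb-/- cells came from Nelfb fl/fl Pdgfra-Cre+ mice. CTL cells came from Pdgfra-Cre+ mice that were Nelfb fl/wt or Nelfb wt/wt, and which of these genotypes each CTL replicate had is not given in the sources used here. Both groups therefore carried the Cre transgene and received the same medium, and no group was treated with interferon. The study used Pdgfra-Cre to delete Nelfb in preadipocyte lineages. Which types of cell in these cultures had lost Nelfb was not measured in the samples used here. The labels call the cells mouse adipocytes.

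Type I interferons bind the receptor pair Ifnar1 and Ifnar2, and signalling through the kinases Jak1 and Tyk2 then leads to a complex with Stat2 and Irf9 that binds the interferon-stimulated response element. Interferon gamma acts through Ifngr1 and Ifngr2 and the kinases Jak1 and Jak2, and leads to binding at the gamma activated site. The genes induced in this way encode sensors of foreign nucleic acid, enzymes that stop viral replication, GTPases that act on the membranes around intracellular pathogens, and regulators that feed back on the pathway.

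The response element was looked for in the RefSeq promoters of the members as GAAANNGAAA on either strand, in a window from 250 bases before to 50 bases after each start of transcription (GRCm38.p6). The reverse complement of this motif reads TTTCNNTTTC. Promoters were given for 32 of the 42 members. The sequences below are those of the members on which the results turn and of their closest relatives, written 5′ to 3′ on the strand of the gene with the matches in capitals. In Isg15 (chr4:156200855-156200916, minus strand) 3 matches overlapped each other, and in Irgm1 (chr11:48871421-48871470, minus strand) 2 did. Ifit1 (chr19:34640765-34640833, plus strand), Ifit3 (chr19:34583353-34583436, plus strand) and Ifit3b (chr19:34607749-34607832, plus strand) each held 2 separate matches. Rsad2 (chr12:26456543-26456592, minus strand), Trim30a (chr7:104465200-104465249, minus strand), Gbp2 (chr3:142620584-142620633, plus strand), Igtp (chr11:58199502-58199551, plus strand) and Irgm2 (chr11:58214893-58214942, plus strand) are shown with 1 match each. Bst2 (chr8:71537567-71537622, minus strand) is shown because it held 2 matches while its groups overlapped in level.
Isg15: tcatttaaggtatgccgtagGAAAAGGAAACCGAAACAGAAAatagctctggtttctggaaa
Ifit1: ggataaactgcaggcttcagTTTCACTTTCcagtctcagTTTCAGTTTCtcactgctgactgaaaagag
Ifit3: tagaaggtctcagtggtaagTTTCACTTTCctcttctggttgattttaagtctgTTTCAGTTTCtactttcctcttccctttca
Ifit3b: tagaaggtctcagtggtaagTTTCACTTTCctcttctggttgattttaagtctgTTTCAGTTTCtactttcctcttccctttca
Rsad2: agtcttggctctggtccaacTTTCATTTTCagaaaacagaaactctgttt
Trim30a: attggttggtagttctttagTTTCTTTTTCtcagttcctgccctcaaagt
Bst2: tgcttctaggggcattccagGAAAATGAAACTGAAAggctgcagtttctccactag
Gbp2: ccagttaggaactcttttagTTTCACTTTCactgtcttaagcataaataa
Irgm1: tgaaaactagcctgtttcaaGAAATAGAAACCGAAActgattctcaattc
Igtp: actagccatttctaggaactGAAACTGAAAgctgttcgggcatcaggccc
Irgm2: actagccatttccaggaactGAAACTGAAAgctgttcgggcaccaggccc

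The stretches of Ifit3 and Ifit3b differed at 0 of 84 bases, and those of Igtp and Irgm2 differed at 2 of 50. The response element was found in 20 of the 32 members with a promoter (62.5%), where 3.99% of the 27025 genes in the promoter table held it. It was found in 13 of 25 type I-type members (52%) and in 7 of 7 GTPases (100%). Of the 31 matches, 25 lay before the start of transcription, and 11 overlapped another match. The gamma activated site, searched as TTCNNNGAA (the same on both strands), was found in 12 members (37.5%) and in 9.55% of all genes, and 2 of the response elements overlapped it. Among the members that passed the threshold of the expression test described next, 9 of 12 with a promoter held the response element, and among the other members 11 of 20 did. These matches are descriptions of the letters in the window, and binding was not measured.

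**Figure D1:**
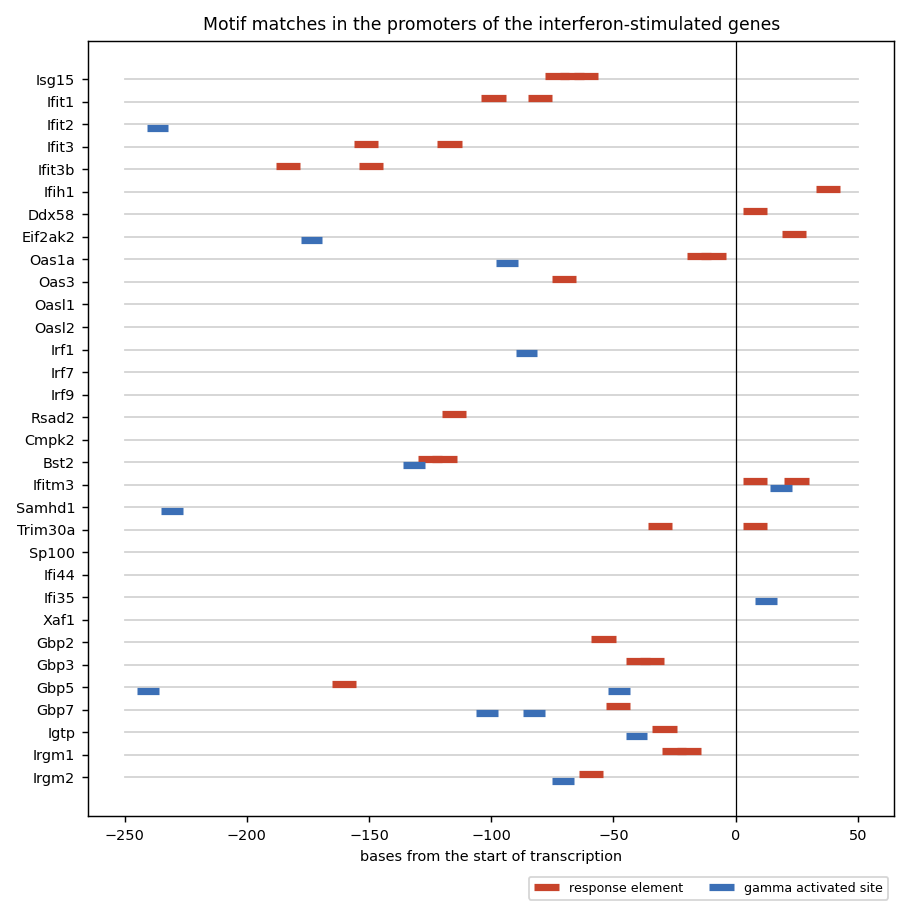
Motif matches in the promoters of the 32 members with a RefSeq promoter. The horizontal axis gives the distance in bases from the start of transcription (vertical line), each grey line is 1 gene, and bars mark matches to the response element (red) or the gamma activated site (blue) over all promoters given for that gene. Of the 31 response element matches, 25 lie to the left of the start, and each of the 7 GTPases at the bottom has at least 1.

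Levels are CPM values, that is reads per 1e+06 reads on the genes of the table, uncorrected for gene length, and are listed in the order of replicates 1, 2 and 3. The 6 libraries held between 17.2 and 29.4 M reads (M, 1e+06), and the value of 3 reads, taken as the floor, was between 0.102 and 0.175 CPM. Groups were compared with limma on log2(value + 1 read) over the 16252 genes whose mean reached 10 reads, with Benjamini-Hochberg adjustment over all of them. The threshold for a call was a change of 2-fold or more with an adjusted p no higher than 0.05. Log2 fold changes are those of Nelfb-/- relative to CTL cells with their standard error (SE), and near the floor this scale understates a change. With 3 libraries a group, the smallest p of an exact two-sided permutation test is 0.1 for any gene. Nelfb was lower in every Nelfb-/- library (5.50, 3.90 and 5.55 CPM) than in CTL (17.3, 19.6 and 22.3 CPM) (log2 fold change -1.99, SE 0.22, limma, adjusted p = 0.0050). CTL replicate 3 and Nelfb-/- replicate 1 stood apart from the other libraries of their group on the second principal component, which held 27.7% of the variance. The adipocyte markers Fabp4 and Adipoq were detected in every library, at 4571 and 488 CPM or more. The fibroblast marker Col1a1 was too, at 1451.5 CPM or more. Summed levels of these kinds of marker are given at the end.

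Of the 42 interferon-stimulated genes, 17 were upregulated in Nelfb-/- cells and 25 did not pass the threshold. The log2 fold change was above 0 for 40 of the 42 members, with a median of 1.49, where the median over all genes tested was 0.068. None of the members was downregulated (0 of 42, limma), and neither of the 2 members below 0 had an unadjusted p under 0.05. Over all genes tested, 7.58% were upregulated and 3.64% downregulated by the same rule. All 3 Nelfb-/- libraries lay above all 3 CTL libraries at 32 members, which held for 22.0% of all genes tested. Without the limit on the fold change 17 members passed, where 9.96% of all genes were called higher. Type I-type members had a median log2 fold change of 1.74 with 14 of 34 past the threshold, and the GTPases had a median of 1.20 with 3 of 8. This difference between the kinds of gene was not tested.

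**Figure D2:**
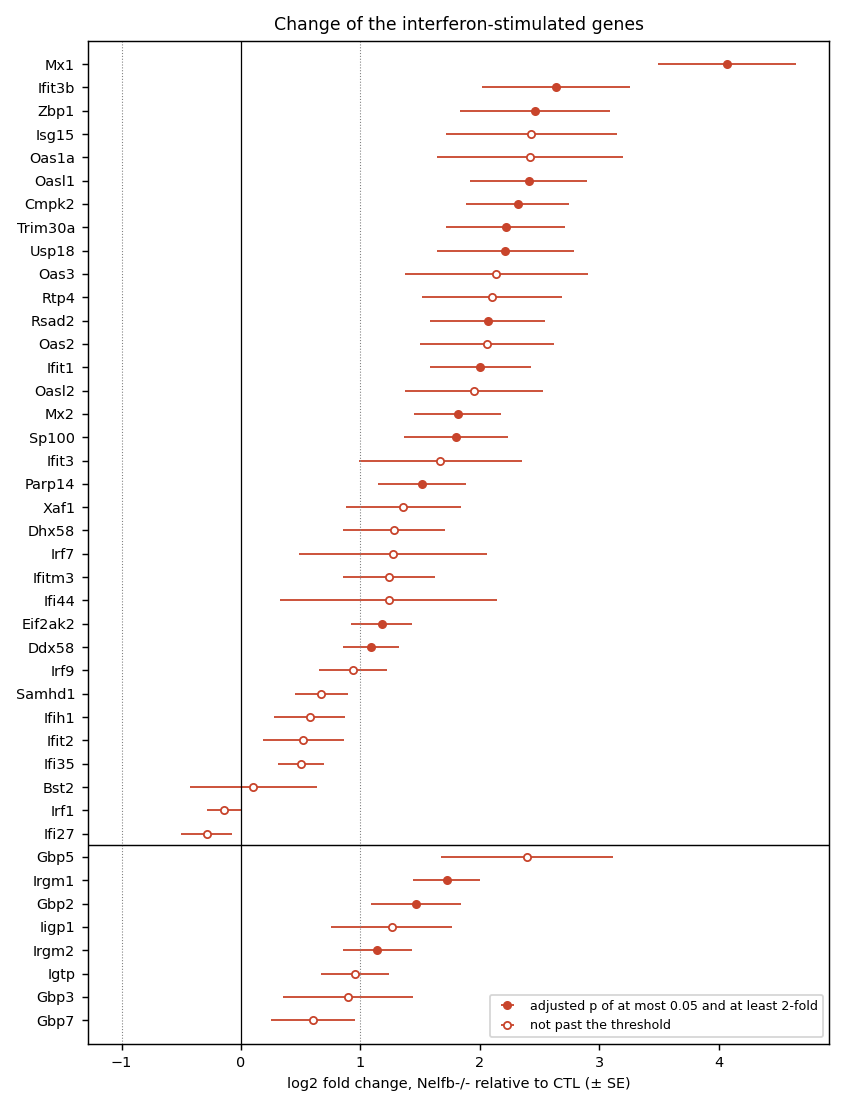
Log2 fold change of each member in Nelfb-/- relative to CTL cells. Points are limma estimates with their SE, filled where the gene passed the threshold (17 members), dotted lines mark a 2-fold change either way, and the 8 GTPases stand below the horizontal line. Irf1 and Ifi27 are the members left of 0.

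The libraries of a group differed from each other at these genes. CTL replicate 2 was the lowest of the 6 libraries at 37 of 42 members, and Nelfb-/- replicate 1 was the highest at 32. The geometric mean over the 34 type I-type members was 14.6, 5.94 and 15.7 CPM in the CTL libraries against 45.2, 30.0 and 26.9 CPM in the Nelfb-/- libraries. Over the 8 GTPases it was 15.8, 5.85 and 14.1 CPM in CTL against 32.9, 26.8 and 22.4 CPM in Nelfb-/- cells. In both sets the lowest Nelfb-/- library stood above the highest CTL library.

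**Figure D3:**
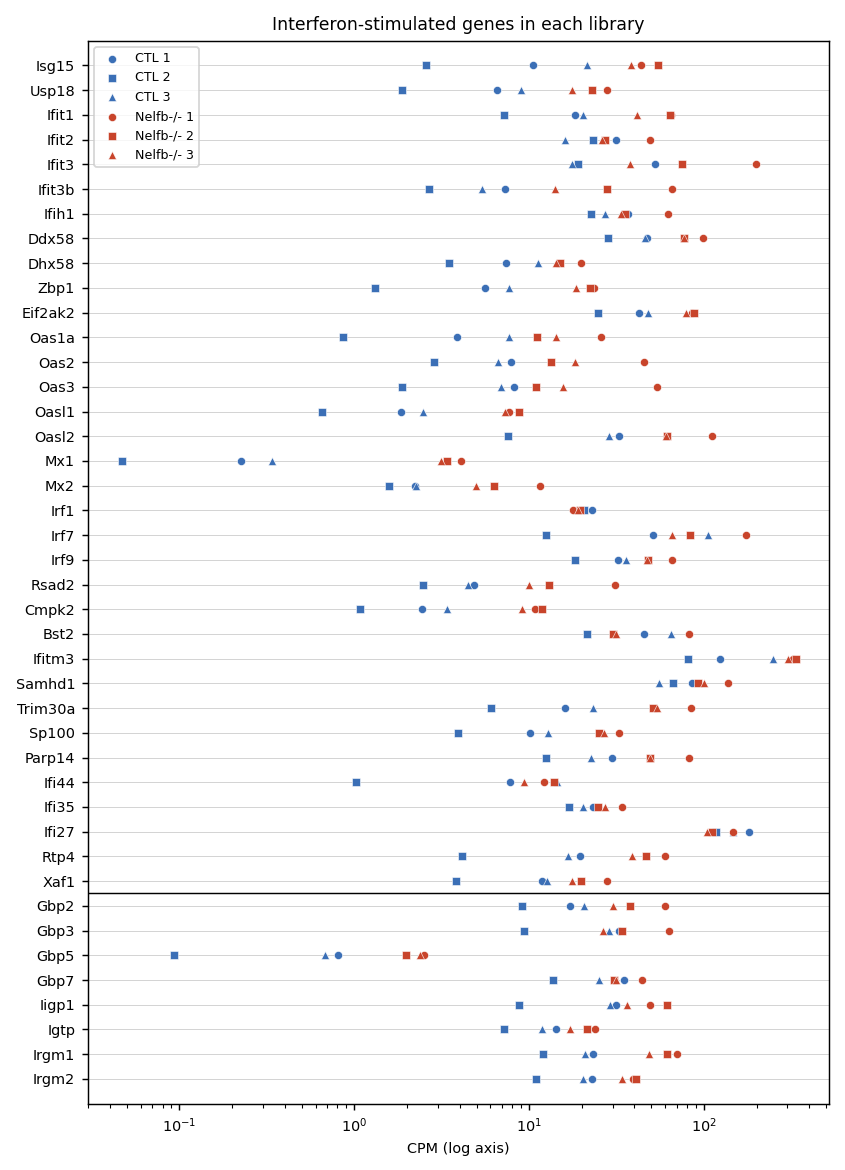
Level of each of the 42 members in each library. The horizontal axis is CPM on a log axis, blue symbols are the 3 CTL and red symbols the 3 Nelfb-/- libraries, with 1 symbol shape per replicate number, and the 8 GTPases stand below the horizontal line. CTL replicate 2 (blue square) is the lowest point at 37 members.

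Levels between genes were compared per kilobase of exon. Ifitm3, which blocks the fusion of viruses with cell membranes, stood highest in Nelfb-/- cells at a mean of 472 CPM per kb. It was followed by Ifi27, a mitochondrial protein induced by type I interferon, at 82.3, Isg15 at 60.2, Ifit3 at 59.5 and Bst2 at 53.1 CPM per kb. In CTL cells the order at the top was Ifitm3 (222 CPM per kb), Ifi27 (101) and Bst2 (48.4), with Isg15 at 15.2. Mx1 (0.931 CPM per kb) and Gbp5 (0.344) stood lowest in Nelfb-/- cells. Dhx58, Irf1, Irf7 and Rtp4 overlap a gene of the table on the opposite strand, and Irf9, Rtp4, Gbp7, Igtp and Irgm2 overlap one on their own strand, so that part of their reads could belong to the neighbour, as it is not given whether counting used strand.

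Isg15 encodes a ubiquitin-like protein that is attached to other proteins, and Usp18 encodes the protease that removes it and also restrains signalling at the interferon receptor. Usp18 was measured at 6.54, 1.87 and 8.94 CPM in CTL and at 27.8, 22.9 and 17.6 CPM in Nelfb-/- cells. The groups did not overlap, and Usp18 was upregulated by 2.21 on the log2 scale (SE 0.57, limma, adjusted p = 0.046). Isg15 (ENSMUSG00000035692, chr4:156199455-156200796, minus strand) was measured at 10.5, 2.57 and 21.4 CPM in CTL and at 43.8, 54.7 and 38.1 CPM in Nelfb-/- cells. Its groups did not overlap either, but it missed the threshold (log2 fold change 2.43, SE 0.72, limma, adjusted p = 0.067).

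The Ifit genes encode proteins that bind viral RNA ends and block its translation, and lie together on chromosome 19. Ifit1 was measured at 18.2, 7.14 and 20.3 CPM in CTL and at 64.8, 63.8 and 41.4 CPM in Nelfb-/- cells (log2 fold change 2.0, SE 0.42, limma, adjusted p = 0.026). Ifit3b was measured at 7.28, 2.68 and 5.34 CPM in CTL and at 65.9, 27.8 and 14.0 CPM in Nelfb-/- cells (log2 fold change 2.64, SE 0.62, limma, adjusted p = 0.035). Both were upregulated with no overlap of the groups, and Ifit3b varied more than Ifit1 among the Nelfb-/- libraries. Ifit3, whose promoter stretch is the same as that of Ifit3b, was measured at 52.3, 19.0 and 17.5 CPM in CTL and at 199, 74.6 and 38.0 CPM in Nelfb-/- cells, with CTL replicate 1 above Nelfb-/- replicate 3 (log2 fold change 1.67, SE 0.68, limma, adjusted p = 0.15). Ifit3 shares 51.2% of its 50-base stretches of transcript with Ifit3b, so that the division of reads between them is uncertain. Their sum missed the threshold (log2 fold change 1.86, SE 0.66, limma, adjusted p = 0.11), a value added after the data were seen, so that the call of Ifit3b was lost in the sum. Ifit2, between 16.1 and 31.3 CPM in CTL and between 26.2 and 49.2 CPM in Nelfb-/- cells, overlapped between the groups.

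Among the sensors of nucleic acid, 3 of 5 passed the threshold. Zbp1, a sensor of Z-form nucleic acid that can trigger necroptosis, was measured at 5.59, 1.31 and 7.68 CPM in CTL and at 23.5, 22.2 and 18.5 CPM in Nelfb-/- cells (log2 fold change 2.46, SE 0.63, limma, adjusted p = 0.045). Eif2ak2, the kinase PKR that halts translation on binding double-stranded RNA, was measured at 42.7, 24.7 and 48.1 CPM in CTL and at 85.5, 87.7 and 78.4 CPM in Nelfb-/- cells (log2 fold change 1.18, SE 0.26, limma, adjusted p = 0.029). Ddx58, which encodes the RNA sensor RIG-I, was measured at 47.0, 28.2 and 45.7 CPM in CTL and at 99.0, 77.2 and 76.7 CPM in Nelfb-/- cells (log2 fold change 1.09, SE 0.24, limma, adjusted p = 0.028). In each of these genes CTL replicate 2 was lowest and the groups did not overlap. Dhx58, which encodes the related regulator LGP2, did not overlap between the groups but missed the threshold (log2 fold change 1.28, SE 0.42, limma, adjusted p = 0.090). Ifih1, which encodes the RNA sensor MDA5, overlapped, with 22.5 to 36.9 CPM in CTL and 33.7 to 62.6 CPM in Nelfb-/- cells.

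The Oas genes encode enzymes, or relatives of them, that make 2′-5′ oligoadenylate on binding double-stranded RNA and thereby activate RNase L. All 5 members were higher in each Nelfb-/- than in each CTL library, with log2 fold changes between 1.95 and 2.42, and 1 passed the threshold. That gene, Oasl1, was measured at 1.85, 0.653 and 2.48 CPM in CTL and at 7.68, 8.79 and 7.26 CPM in Nelfb-/- cells (log2 fold change 2.41, SE 0.49, limma, adjusted p = 0.023). Its 3 Nelfb-/- values lay close together, whereas Oas3 was measured at 53.8 CPM in Nelfb-/- replicate 1 and at 10.9 and 15.7 CPM in replicates 2 and 3. The adjusted p of the other 4 in limma was 0.054 for Oas2, 0.067 for Oasl2, 0.084 for Oas1a and 0.11 for Oas3. Oas1a shares 57.6% of its 50-base stretches with Oas1g, and the sum of both missed the threshold (log2 fold change 2.65, SE 0.80, limma, adjusted p = 0.071), also a value added after the data were seen.

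Mx1 and Mx2 encode dynamin-like GTPases that trap viral components, and both are annotated in the table as polymorphic pseudogenes, and common laboratory strains carry disrupted copies. Mx1 (ENSMUSG00000000386, chr16:97447035-97462907, minus strand) had the largest log2 fold change of the 42 members. It was measured at 0.225, 0.0467 and 0.340 CPM in CTL and at 4.08, 3.38 and 3.12 CPM in Nelfb-/- cells (log2 fold change 4.06, SE 0.58, limma, adjusted p = 0.0091). The value in CTL replicate 2 lay under the floor of 3 reads. Mx2 was measured at 2.21, 1.59 and 2.24 CPM in CTL and at 11.5, 6.29 and 4.96 CPM in Nelfb-/- cells (log2 fold change 1.81, SE 0.36, limma, adjusted p = 0.022). For both genes the lowest Nelfb-/- library was above the highest CTL library by more than the range of the CTL libraries.

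Of the 3 interferon regulatory factors, none passed the threshold in limma, and 1 of the 3 had an unadjusted p under 0.05. Irf7, the factor that amplifies interferon production, ranged from 12.4 to 106 CPM in CTL and from 65.9 to 174 CPM in Nelfb-/- cells, and CTL replicate 3 exceeded Nelfb-/- replicates 2 and 3. Irf9, the DNA-binding partner of Stat2, was measured at 32.2, 18.2 and 36.0 CPM in CTL and at 65.9, 47.6 and 47.4 CPM in Nelfb-/- cells (log2 fold change 0.94, SE 0.29, limma, adjusted p = 0.074). Irf1, whose promoter held a gamma activated site and no response element, was measured at 22.9, 20.5 and 18.9 CPM in CTL and at 17.8, 19.4 and 19.1 CPM in Nelfb-/- cells. Its log2 fold change was -0.14 (SE 0.14), and it was 1 of the 2 members below 0.

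Among the other antiviral and restriction factors, 5 of 8 were upregulated. Rsad2 encodes viperin, which makes a nucleotide that ends viral RNA chains, and Cmpk2 next to it on chromosome 12 encodes a kinase that supplies the precursor. Rsad2 was measured at 4.83, 2.47 and 4.49 CPM in CTL and at 31.2, 13.0 and 9.91 CPM in Nelfb-/- cells (log2 fold change 2.06, SE 0.48, limma, adjusted p = 0.034). Cmpk2 was measured at 2.44, 1.07 and 3.40 CPM in CTL and at 10.9, 11.8 and 9.06 CPM in Nelfb-/- cells (log2 fold change 2.32, SE 0.43, limma, adjusted p = 0.018). The groups were apart for both genes, and Nelfb-/- replicate 1 stood out in Rsad2 but not in Cmpk2.

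Trim30a, a member of the tripartite motif family, was measured at 16.0, 6.06 and 23.3 CPM in CTL and at 83.8, 50.7 and 53.6 CPM in Nelfb-/- cells (log2 fold change 2.22, SE 0.50, limma, adjusted p = 0.031). Sp100, a component of PML nuclear bodies, was measured at 10.1, 3.92 and 12.8 CPM in CTL and at 32.5, 25.2 and 26.7 CPM in Nelfb-/- cells (log2 fold change 1.80, SE 0.43, limma, adjusted p = 0.038). Parp14, an ADP-ribosyltransferase, was measured at 29.9, 12.5 and 22.7 CPM in CTL and at 82.5, 49.1 and 49.0 CPM in Nelfb-/- cells (log2 fold change 1.52, SE 0.37, limma, adjusted p = 0.038). In each of the 3 genes every Nelfb-/- library was above every CTL library. Ifitm3 and Samhd1, a phosphohydrolase that depletes nucleotides, were also apart between the groups but missed the threshold (log2 fold changes 1.24 and 0.67, limma, adjusted p = 0.076 and 0.091). Bst2, which encodes the virus-tethering protein tetherin, was measured at 45.3, 21.5 and 64.3 CPM in CTL and at 82.6, 30.0 and 31.3 CPM in Nelfb-/- cells, with the groups interleaved and a log2 fold change of 0.10 (SE 0.53).

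None of the 5 other induced genes passed the threshold, and 3 of the 5 had an unadjusted p under 0.05 in limma. Rtp4 was measured at 19.5, 4.11 and 16.8 CPM in CTL and at 60.1, 46.8 and 38.6 CPM in Nelfb-/- cells (log2 fold change 2.10, SE 0.59, limma, adjusted p = 0.057). Xaf1, which promotes apoptosis, and Ifi35 were also apart between the groups, with log2 fold changes of 1.36 (SE 0.48) and 0.50 (SE 0.19). Ifi44 ranged from 1.03 to 14.5 CPM in CTL and from 9.34 to 13.8 CPM in Nelfb-/- cells, and CTL replicate 3 was the highest of all. Ifi27 was the other member below 0, with 118 to 181 CPM in CTL and 105 to 147 CPM in Nelfb-/- cells (log2 fold change -0.29, SE 0.21, limma, adjusted p = 0.40).

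Guanylate-binding proteins coat and break the vacuoles of intracellular pathogens, and Gbp2 was the 1 of 4 that passed the threshold. It was measured at 17.0, 9.15 and 20.5 CPM in CTL and at 59.6, 37.7 and 30.2 CPM in Nelfb-/- cells (log2 fold change 1.47, SE 0.37, limma, adjusted p = 0.045). Gbp5 was measured at 0.812, 0.0933 and 0.680 CPM in CTL, under the floor of 3 reads in replicate 2 alone, and at 2.51, 1.98 and 2.37 CPM in Nelfb-/- cells (log2 fold change 2.40, SE 0.72, limma, adjusted p = 0.070). The groups were apart for Gbp2 and Gbp5. Gbp3 and Gbp7 overlapped, with log2 fold changes of 0.90 (SE 0.54) and 0.61 (SE 0.35).

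All 4 immunity-related GTPases, which act on the same vacuoles and in autophagy, were higher in each Nelfb-/- than in each CTL library. Irgm1 (ENSMUSG00000046879, chr11:48861968-48871683, minus strand) was measured at 23.0, 12.04 and 20.8 CPM in CTL and at 70.2, 61.6 and 48.1 CPM in Nelfb-/- cells (log2 fold change 1.72, SE 0.28, limma, adjusted p = 0.013). Irgm2 was measured at 22.8, 10.96 and 20.3 CPM in CTL and at 39.3, 40.7 and 34.1 CPM in Nelfb-/- cells (log2 fold change 1.14, SE 0.29, limma, adjusted p = 0.044). Both were upregulated, and Irgm1 was the member with the smallest SE among those with a log2 fold change above 1.5. Igtp and Iigp1 missed the threshold, at 0.95 (SE 0.29) and 1.26 (SE 0.51) on the log2 scale (limma, adjusted p = 0.070 and 0.14). Igtp overlaps Irgm2 on the same strand and shares 11.8% of its 50-base stretches with it, so that reads may be divided between them.

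The count of members past the threshold depended on single libraries, although the direction seldom did. It was 2 without CTL replicate 1, 10 without CTL replicate 2 and 20 without CTL replicate 3, where 3.86%, 3.29% and 10.4% of all genes tested were upregulated. It was 7, 2 and 1 without Nelfb-/- replicates 1, 2 and 3, where 7.74%, 3.86% and 1.79% of all genes were. Without CTL replicate 1 or Nelfb-/- replicate 2 the share of members (4.76%) was thus near that of all genes, and so it was without Nelfb-/- replicate 3 (2.38%). Irgm1 kept its call in all 6 of these fits, and Mx1 lost it only without Nelfb-/- replicate 3 (limma, adjusted p = 0.053). By contrast, Parp14 passed in 0 of the 6, and Ifit3b, Ddx58, Eif2ak2, Gbp2 and Irgm2 passed in 1 each. The log2 fold change of Bst2 lay between -0.37 and 0.45 in these fits, and it was the only member whose sign changed. Without both CTL replicate 3 and Nelfb-/- replicate 1, a choice made after the data were seen, 26 members passed, including all 17, and 17.7% of all genes tested were upregulated.

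Upstream of these genes, 12 interferon genes, among them Ifnb1 and Ifng, were looked up by name as ligands, and 0 of the 12 were among the genes analysed here. Ifnar1, the first chain of the type I receptor, was measured at 54.9, 54.1 and 64.3 CPM in CTL and at 95.6, 98.1 and 104 CPM in Nelfb-/- cells (log2 fold change 0.78, SE 0.13, limma, adjusted p = 0.013), under the limit of 2-fold. Ifnar2, Ifngr1, Ifngr2 and Il10rb did not pass, with log2 fold changes between -0.20 and 0.78. The kinase Jak1 was upregulated, with 239, 240 and 269 CPM in CTL against 533, 543 and 522 CPM in Nelfb-/- cells (log2 fold change 1.10, SE 0.14, limma, adjusted p = 0.0068). Jak2 was higher by less than 2-fold (log2 fold change 0.89, SE 0.12, limma, adjusted p = 0.0081). Tyk2, the kinase bound to Ifnar1, was measured at 21.4, 21.6 and 22.5 CPM in CTL and at 38.0, 24.3 and 27.7 CPM in Nelfb-/- cells and missed the threshold (log2 fold change 0.43, SE 0.19, limma, adjusted p = 0.17). Stat2 did not overlap between the groups but missed the threshold (log2 fold change 1.12, SE 0.31, limma, adjusted p = 0.056).

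Of 17 genes listed for the sensing of nucleic acids and the control of interferon production, 7 were upregulated and 0 downregulated. Over all genes tested, the shares were 7.58% and 3.64%. The 7 upregulated genes were the DNA sensor Mb21d1 (cGAS), the Toll-like receptors Tlr3, Tlr7 and Tlr9, the factors Irf5 and Irf8 and the exonuclease Trex1. Irf5 was measured at 7.20, 4.59 and 5.11 CPM in CTL and at 36.5, 20.9 and 26.0 CPM in Nelfb-/- cells (log2 fold change 2.28, SE 0.28, limma, adjusted p = 0.0060). Mavs, the adaptor of the RNA sensors, was lower in each Nelfb-/- library but by less than 2-fold (log2 fold change -0.62, SE 0.12, limma, adjusted p = 0.019). Of 8 negative regulators, Socs1, Socs3, Ptpn1 and Ptpn6 were upregulated. The phosphatase Ptpn6, known from blood cells, had the largest change of them, with 2.48, 0.793 and 1.66 CPM in CTL against 18.5, 18.7 and 29.3 CPM in Nelfb-/- cells (log2 fold change 3.82, SE 0.44, limma, adjusted p = 0.0056).

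Another 65 interferon-stimulated genes were listed beside the 42 members, and 57 of them were tested. Their median log2 fold change was 0.93, with 48 above 0, 11 upregulated and 2 downregulated. Of all genes tested, 7.58% were upregulated and 3.64% downregulated. Those upregulated among the 57 were Oas1g, Trim30d, Ifi204, Ifi47, Phf11b, Slfn2, Epsti1, Gbp9, Cxcl10, Ddx60 and Ms4a4c. The call of Oas1g was lost when it was summed with Oas1a, with which it shares stretches of transcript (limma, adjusted p = 0.071). The chemokine gene Cxcl10 was measured at 1.98, 2.61 and 1.05 CPM in CTL and at 19.5, 12.9 and 8.40 CPM in Nelfb-/- cells (log2 fold change 2.83, SE 0.44, limma, adjusted p = 0.011). Isg20, an exonuclease of RNA, was downregulated, with 24.2, 26.8 and 27.1 CPM in CTL against 7.97, 7.80 and 6.12 CPM in Nelfb-/- cells (log2 fold change -1.84, SE 0.17, limma, adjusted p = 0.0040). Nampt, an enzyme of NAD synthesis, was the other downregulated gene (log2 fold change -1.41, SE 0.33, limma, adjusted p = 0.035). Over the whole set of 91 tested pathway genes, 23 were upregulated and 2 downregulated, beside the same shares of all genes. The median log2 fold change of the 91 was 0.90.

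Markers of macrophages, cells that express many of these genes, moved with the group. All 12 were higher in Nelfb-/- cells and 11 passed the threshold. Their summed level lay between 198 and 733 CPM in CTL and between 1947 and 6061 CPM in Nelfb-/- libraries, and none was at 0 in any library. The defining markers Adgre1 (F4/80) and Csf1r were measured at 29.3, 17.3 and 9.55 CPM and at 22.6, 12.3 and 15.5 CPM in CTL. In Nelfb-/- cells they were measured at 223, 80.1 and 124 CPM and at 206, 87.0 and 148 CPM. Nelfb-/- replicate 1 was the highest of the 6 libraries at all 12 markers and at 32 of the 42 members. CTL replicate 3 was the lowest at 9 of 12 markers but at 3 of 42 members, whereas CTL replicate 2 was the lowest at 2 markers and 37 members. The part of these markers in the result was not tested, and more cells of a type and more RNA per cell cannot be told apart in bulk samples.

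**Figure D4:**
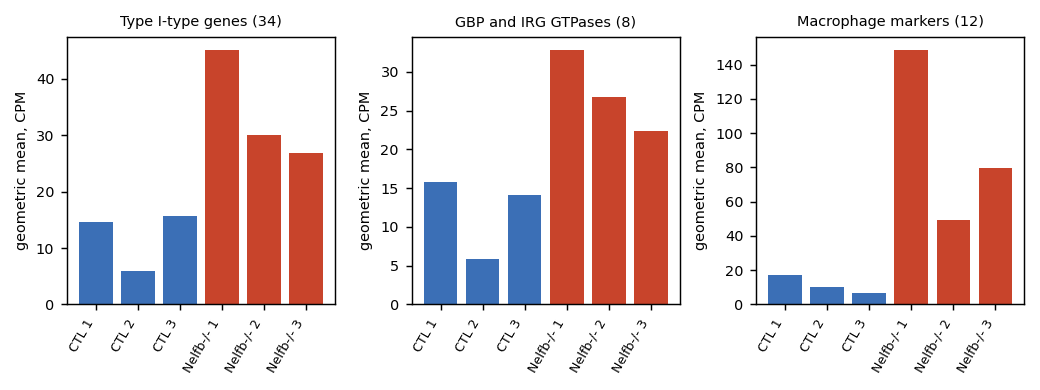
Geometric mean level in CPM of the 34 type I-type members, the 8 GTPases and 12 macrophage markers in each library (blue, CTL; red, Nelfb-/-). Bars start at 0 and each stands for 1 library. CTL replicate 2 is the lowest bar for both sets of members, at 5.94 and 5.85 CPM, and CTL replicate 3 the lowest for the macrophage markers, at 6.68 CPM.

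Other markers differed as well. All 5 melanocyte markers were upregulated, with a summed level of 1.22 to 1.43 CPM in CTL and 30.3 to 72.1 CPM in Nelfb-/- libraries. The Schwann cell marker Sox10 was upregulated (log2 fold change 2.62, SE 0.16, limma, adjusted p = 0.0028). The keratinocyte marker Krt14 (1 of 3 tested), the endothelial marker Emcn (1 of 4) and the dendritic cell marker Itgax (1 of 2) were also upregulated. The endothelial marker Kdr and the dendritic cell marker Zbtb46 went the other way, with overlapping groups (log2 fold changes -0.37 and -0.43). The summed level of 7 adipocyte markers was 28008, 26683 and 17757 CPM in CTL against 8983, 18253 and 14592 CPM in Nelfb-/- cells, most of it from Fabp4. The log2 fold change was below 0 for 5 of the 7, with a median of -0.79, and 0 of the 7 were downregulated in limma, where 3 of the 7 had an unadjusted p under 0.05 in either direction. Lep, which encodes leptin, was the 1 that was upregulated (log2 fold change 5.26, SE 0.88, limma, adjusted p = 0.014). The summed level of 7 fibroblast markers was 3049, 2616 and 11800 CPM in CTL against 5927, 23418 and 25274 CPM in Nelfb-/- cells, where 0 of 7 passed the threshold in limma and 5 had an unadjusted p under 0.05. Of 6 markers of T and NK cells that were looked up by name, 0 were among the genes analysed here. The part of these cell types in the levels of interferon-stimulated genes was not tested.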

How the data were processed

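RNA-seq of 3 CTL and 3 Nelfb-/- samples was analysed from the table of CPM values that the authors deposited, each of which included an offset of 0.0001 CPM. The submitters' processing notes name STAR (2.7), Partek (9.0.20.0202) and mm10, and the study states a limit of 10 reads a gene. Whether counting used strand is not given in the sources used here. Gene positions are those of the table, on mm10 (GRCm38), and each column was matched to its sample by name. The lowest values of each library rose in steps worth 1 read, which gave depths of 17.2 to 29.4 M reads (M, 1e+06). Of values no higher than 20 reads, 72.3% to 74.9% came out whole (within 0.05 read), so they were not taken as counts and no count test was run.

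The offset was subtracted, each library was scaled to 22.3 M reads, and genes whose mean reached 10 reads (0.448 CPM) were kept. Then log2(value + 1 read) was tested with limma (3.58.1, R 4.3.3) with an abundance trend. The method was tried on simulated whole counts without outlying libraries, so its behaviour at the spread seen here was not tested. The pseudocount and the filter had been written without knowledge of the unit and were set in reads, and were also tried in CPM. The threshold of 0.05 and 2-fold follows the study. Every member is accounted for; other pathway genes named are receptors, kinases, Stat2 and those past the threshold, with examples, and 2 listed genes are not reported here. The members and lists were chosen with earlier results of these data known. Promoters are those of RefSeq (GRCm38.p6), and shared 50-base stretches were counted between GENCODE (vM21) transcripts. Of the alternatives tried, 3 were chosen after the data were seen.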

Additional observations from a re-analysis of the deposited data

How the results depend on the processing

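Of the counts of genes past the threshold, those for the 42 interferon-stimulated genes stayed within 1.5 times of 17 under other pseudocounts, filters and the scaling by median of ratios (13 to 18), with 40 of 42 members above 0, or 34 of the 36 tested in CPM. Without the abundance trend 11 members passed (26.2%), 1 of them a GTPase, where 7.29% of all genes were higher. Tested gene by gene without moderation, 1 member passed (type I-type 1, GTPases 0), with 438 of all genes higher and 246 lower and 5 pathway genes higher and 1 lower. In that setting the share of members past the threshold (2.38%) did not exceed the share of all genes that were higher (2.695%). With a pseudocount of 1 CPM and a mean of at least 10 CPM, 513 of all genes were higher and 335 lower, and 12 pathway genes were higher. Without both CTL replicate 3 and Nelfb-/- replicate 1, chosen after the data were seen, 26 members passed (type I-type 22), 2864 of all genes were higher and 1519 lower, and 33 pathway genes were higher and 4 lower. With each library left out in turn, 1 to 20 members passed (type I-type 0 to 17, GTPases 1 to 3), with 290 to 1704 of all genes higher, 136 to 776 lower, 6 to 28 pathway genes higher and 1 to 3 lower; these fits hold 5 libraries in place of 6. Beyond that, the cause of these differences was not tested.

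The sign turned for Bst2 without CTL replicate 2 (-0.34), without Nelfb-/- replicate 1 (-0.37) and without both CTL replicate 3 and Nelfb-/- replicate 1 (-0.026), and was 0.45 at most. In the last setting it also turned for Ifit2 (-0.021, at most 0.75 with other libraries left out) and Ifnar2 (-0.089, at most 0.19). Ifnar2 turned without Nelfb-/- replicate 1 (-0.037). None of these was past the threshold. With the response element searched on the strand of the gene alone, 10 of 32 members held it in place of 20, and 2.06% of all genes.

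Whether the replicate numbers pair the samples is not given in the sources used here. Deviations from the group means correlated at 0.52, -0.39 and 0.52 between same-numbered libraries, and at -0.63 to 0.54 between the others. With 3 libraries a group these values cannot decide it. With a replicate block 25 members passed, including all 17, and 1505 of all genes were higher and 670 lower. The share of members was then 59.5%, where 9.26% of all genes were higher. Depth limits Mx1 and Gbp5, which lay under 3 reads in CTL replicate 2.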
